A study of Mus musculus with 12 samples.

Results

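The transporter rows followed here are 3 of the 57010 gene rows of the series: ENSMUSG00000009733 (labelled Tfcp2) and ENSMUSG00000044636 (labelled Csrnp2), both estimated to hold reads of the iron transporter gene Slc11a2, and ENSMUSG00000027737 (labelled Slc7a11), for the cystine transporter gene of that name. The rows were chosen by their measured differences between groups in these same libraries, so their LPS_EV and IL10_EV differences below are descriptions without a test. The libraries came from BV2, an immortalised mouse microglial line and so 1 cell line in culture, without primary microglia. Recipient BV2 cells were kept for 24 h with extracellular vesicles, membrane particles shed by donor BV2 cells. The donors had been left untreated (control_EV), or had received LPS, a bacterial surface molecule (LPS_EV), TGF-β (TGFB_EV) or IL-10 (IL10_EV). Every group, control_EV included, received vesicles, so none shows BV2 cells without them. Each of the 4 groups had 3 libraries, 12 in all. The labels give no donor dose or time and do not say that replicates were separate cultures, so the p-values below measure the spread between libraries, which may be technical.

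Slc11a2 encodes DMT1, a proton-coupled carrier that moves ferrous iron across the plasma membrane or out of endosomes after transferrin uptake. Its messenger RNA ends in alternative ways: one end carries an iron-responsive element, a hairpin bound by iron regulatory proteins when cellular iron is low, and the other end lacks it. Slc7a11 encodes xCT, which pairs with the heavy chain made by Slc3a2 to bring in cystine in exchange for glutamate. Cystine is reduced to cysteine, the limiting building block of glutathione. Both systems meet in ferroptosis, a cell death driven by iron-dependent lipid peroxidation that glutathione holds back, and in activated microglia xCT is known as a route of glutamate release.

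Row labels and reads did not match along the chromosomes of these tables, so the place of each row was estimated first. Exons of every row, taken from the GENCODE M21 annotation (build GRCm38), were moved along the chromosome by displacements that were fitted without the group labels. Rows labelled Tfcp2 and Csrnp2 lay in a stretch of 235 neighbouring chromosome 15 rows that fitted best 101.9 kb below their annotated place. The score of that stretch was 40, against 13 with no displacement, and it lay 22 above the best displacement more than 10 kb away. Displacements nearer than 10 kb were not weighed by that margin. The row whose own label is Slc11a2 (ENSMUSG00000023030) held 1.43 ± 0.35 CPM (SD over 12 libraries; CPM is the count scaled to a common library size by edgeR's TMM factors), with 11 to 24 counts a library.

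Moved in this way, 1 exon of the Tfcp2-labelled row (chr15:100400847-100402543, minus strand) covered coding exons 11, 12 and 13 of Slc11a2 and the introns between them. These exons hold 87, 120 and 150 bases and occur in both Slc11a2-201, which has 17 exons, and Slc11a2-205, which has 16. With 32 bases of exon 2 and 161 bases of the first exon of the shorter transcript Slc11a2-202, the row met 550 bases of Slc11a2. It also met 167 bases of Gm5475, a gene that overlaps Slc11a2. The library kit does not mark strand, so reads of Gm5475 in this row cannot be told apart from those of Slc11a2. Exon 12 (chr15:100401552-100401671, GRCm38, minus strand) is shown because it is coding sequence common to both ends of the messenger RNA, read 5′ to 3′:

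Slc11a2 exon 12: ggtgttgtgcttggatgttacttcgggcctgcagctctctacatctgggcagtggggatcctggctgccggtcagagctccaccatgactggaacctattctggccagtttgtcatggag

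The Csrnp2-labelled row, in contrast, met Slc11a2 only at 455 bases (chr15:100393134-100393588, minus strand), all of them in the 3′ untranslated part of the last exon of Slc11a2-205. The 2 transcripts share the first 54 bases of exon 16 and then differ. Slc11a2-205 reads on through exon 16 for 54 more coding bases, while Slc11a2-201 splices to exon 17 and has 75 coding bases of its own. Both coding ends are shown from the first base of exon 16, with the part that differs in capitals:

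Slc11a2-205 coding end: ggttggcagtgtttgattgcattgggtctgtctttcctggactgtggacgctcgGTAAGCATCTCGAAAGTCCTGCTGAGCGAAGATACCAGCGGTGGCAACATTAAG
Slc11a2-201 coding end: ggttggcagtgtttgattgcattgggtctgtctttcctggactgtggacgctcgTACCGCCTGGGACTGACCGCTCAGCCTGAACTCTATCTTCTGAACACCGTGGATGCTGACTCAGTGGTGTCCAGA

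A search for the iron-responsive element, a hairpin with an unpaired C on its 5′ side and a CAGTGN loop, found 1 match in Slc11a2-205, starting 41 bases after its last coding base. None was found in Slc11a2-201. The match needed 1 unpaired base to be allowed on the 3′ arm, a form that 2.48% of 58797 protein-coding transcripts hold. The strict pattern, held by 0.725% of them, was in neither transcript. The match is shown because it lies on the same exon as the Csrnp2-labelled row. The stretch printed (chr15:100395152-100395181) holds flanking bases on either side of the match and lies 1564 bases before that row's exon, with the loop in capitals:

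Slc11a2-205 iron-responsive element match: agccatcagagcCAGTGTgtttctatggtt

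Where they met Slc11a2, the rows thus covered different parts of the gene. The Tfcp2-labelled row covered coding exons of both forms and the Csrnp2-labelled row the end of the form with the element. Most of their moved exon length lay outside Slc11a2 exons: 550 of 8063 bases met it for the Tfcp2-labelled row and 455 of 4375 for the Csrnp2-labelled row. Within 5 kb to either side of the estimate, the Tfcp2-labelled row met Slc11a2 at 100 of 101 displacements tried. It met Gm5475 at 95 of them, with a largest overlap of 1766 bases against 1048 for Slc11a2, so the part of each in this row is open. The Csrnp2-labelled row met Slc11a2 at 62 of 101 and met Methig1 at 64 and Higd1c at 56, so its match to Slc11a2 is the less certain.

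**Figure D1:**
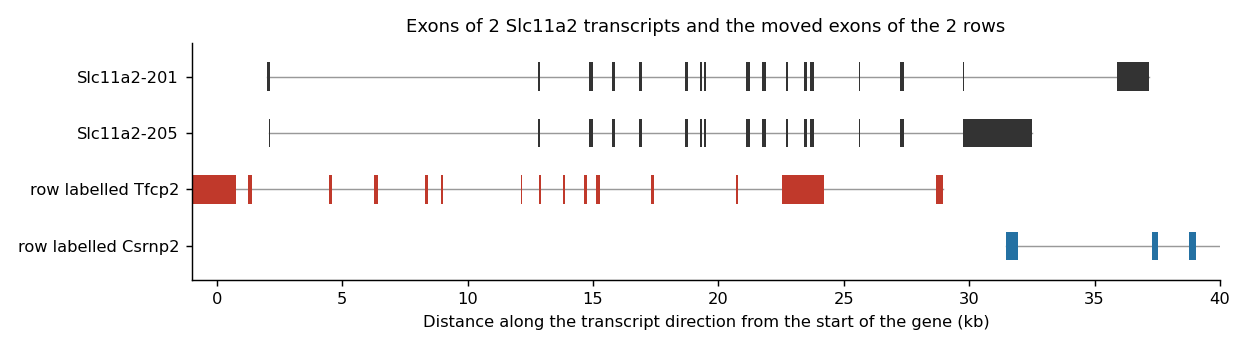
Exons (boxes) of 2 Slc11a2 transcripts and the moved exons of the rows labelled Tfcp2 and Csrnp2, by distance in kb from the start of the gene in the direction of transcription; both rows run on beyond the part drawn. The wide Tfcp2-row box lies over exons 11 to 13 of both transcripts, and the Csrnp2-row box lies in the last exon of Slc11a2-205.

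For the Slc7a11-labelled row the place was not settled. It is the last of 556 chromosome 3 rows that fitted best 53.9 kb above their annotated place (6 above the best displacement more than 10 kb away), and it borders 726 rows that fitted best 92.8 kb below theirs. At the first displacement only 100 of the 13922 bases of its moved exons met Slc7a11, all of coding exon 5 of 12. Across the 1468 displacements from one estimate to the other it met Slc7a11 at 1166, or 79.4%, and met no other protein-coding gene at any. The nearest protein-coding genes on either side, Pcdh18 and Noct, lie 608 kb and 781 kb away. Exon 5 (chr3:50424042-50424141, GRCm38, minus strand) is shown as the part met at the estimate:

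Slc7a11 exon 5: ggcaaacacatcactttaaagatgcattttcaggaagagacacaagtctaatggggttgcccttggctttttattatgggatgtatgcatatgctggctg

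The row labelled Gm6209 (ENSMUSG00000102715), at its own estimate 92.8 kb below, met the same exon, and the 2 placements cannot both hold. Rows around the Slc7a11-labelled row were almost empty: of the 10 nearest, 5 on each side, none reached 0.2 CPM in any library.

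The RefSeq promoter table held 1 of the 2 genes, Slc7a11. The 250 bases before its start (chr3:50443614-50443863, GRCm38, minus strand) are shown because ATF4, a regulator that is active when amino acids are short, is known to act on this promoter through elements with the core TGATGCAA. In capitals are the matches to that core on either strand:

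Slc7a11 promoter: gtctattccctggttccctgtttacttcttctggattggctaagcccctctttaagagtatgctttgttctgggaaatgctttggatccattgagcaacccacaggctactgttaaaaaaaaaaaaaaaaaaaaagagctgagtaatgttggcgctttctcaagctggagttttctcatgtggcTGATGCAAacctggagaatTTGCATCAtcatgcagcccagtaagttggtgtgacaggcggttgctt

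TGATGCAA occurred once on the forward strand, from base -66, and once on the reverse strand, from base -47, counted from the start of the gene. Of 32817 promoters in the table, 0.792% held it on either strand. TGACNNNGC, a form of the core of the antioxidant response element bound by NRF2, was not found in this window on either strand, and 10.2% of the promoters held it. Other forms of that core were not searched, so this does not show that the window lacks the element.

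Sequencing depth ran from 10497757 to 13647007 counts a library. The limit that a count of 0 allows, 3 counts, came to between 0.219 and 0.286 CPM. This floor and the Wilson intervals given with shares cover counting error only, since reads carried no molecular identifiers. Every member count, from 93 to 2360, was far above it. Replicates differed most in pairs that held IL10_EV replicate 2, with a chi-square over rows of at least 5 CPM of 25.1 and 33.8 per degree of freedom, and between TGFB_EV replicates 2 and 3, with 22.5. The other 9 pairs gave 3.94 to 12.8. Of 10 microglia and macrophage markers, 6 were met by moved rows, whose summed level was 1443 to 1616 CPM with control_EV, 1569 to 1600 with LPS_EV, 1226 to 1639 with TGFB_EV and 1400 to 1899 with IL10_EV. Rows that met Trem2 and C1qa were at 0 in all libraries. Summed astrocyte and fibroblast markers (4 of 5 and 4 of 4 met) reached at most 0.744 and 0.695 CPM, the neuronal list (1 of 5 met) 0.160 CPM and the endothelial list (1 of 4 met) 1.53 CPM. Oligodendrocyte markers (5 of 5 met) summed to 157 to 195 CPM, of which 166 CPM on average was 1 row that met Sox10. In such bulk RNA, fewer expressing cells and less RNA per cell cannot be told apart.

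The Tfcp2-labelled row, over the coding exons of Slc11a2, was highest after LPS_EV. Its level in control_EV was 111.2, 122.9 and 115.9 CPM in replicates 1, 2 and 3. LPS_EV libraries held 143.7, 205.0 and 182.2 CPM, each above all controls. IL10_EV libraries held 130.8, 156.9 and 145.2 CPM, again each above all controls, and overlapped the LPS_EV range only through LPS_EV replicate 1. TGFB_EV libraries held 128.6, 135.3 and 107.8 CPM, on both sides of the control range. The group means ran from 177 ± 31.0 CPM in LPS_EV through 144 ± 13.1 in IL10_EV and 124 ± 14.3 in TGFB_EV to 117 ± 5.89 in control_EV (SD, n = 3). Neighbouring groups in this order overlapped in range. Against control_EV the log2 fold change was 0.60 (SE 0.09) for LPS_EV, 0.31 (SE 0.09) for IL10_EV and 0.08 (SE 0.09) for TGFB_EV. The 3 comparisons share their control libraries.

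The Csrnp2-labelled row, over the untranslated end of the form with the element, was about 10 times less abundant and had its group means in the same order, with more scatter. Control_EV libraries held 8.87, 11.9 and 12.3 CPM and LPS_EV libraries 18.3, 23.7 and 21.5 CPM, with no overlap. IL10_EV libraries held 10.3, 19.9 and 14.7 CPM, of which replicate 1 lay within the control range. TGFB_EV libraries held 17.3, 11.7 and 10.5 CPM, of which only replicate 1 lay above the controls. Group means were 21.2 ± 2.72 CPM in LPS_EV, 15.0 ± 4.77 in IL10_EV, 13.2 ± 3.63 in TGFB_EV and 11.01 ± 1.87 in control_EV (SD, n = 3). The IL10_EV, TGFB_EV and control_EV ranges overlapped one another, and the LPS_EV and IL10_EV ranges overlapped too. The log2 fold change was 0.94 (SE 0.15) for LPS_EV, 0.44 (SE 0.23) for IL10_EV and 0.25 (SE 0.20) for TGFB_EV. Without IL10_EV replicate 2 the IL10_EV value was 0.18, and without TGFB_EV replicate 1 the TGFB_EV value was 0.00.

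The Slc7a11-labelled row was high after both LPS_EV and IL10_EV and lowest after TGFB_EV. Control_EV libraries held 48.0, 56.4 and 50.4 CPM. LPS_EV libraries held 57.4, 84.9 and 75.7 CPM and IL10_EV libraries 61.1, 91.1 and 62.3 CPM. All 6 of these lay above all controls, the lowest LPS_EV library only narrowly. TGFB_EV libraries held 44.6, 45.4 and 50.2 CPM, none above the control mean. Group means were 72.7 ± 13.99 CPM in LPS_EV, 71.5 ± 16.995 in IL10_EV, 51.6 ± 4.37 in control_EV and 46.7 ± 3.07 in TGFB_EV (SD, n = 3). The ranges of LPS_EV and IL10_EV overlapped, as did those of control_EV and TGFB_EV. The log2 fold change was 0.50 (SE 0.10) for LPS_EV, 0.47 (SE 0.15) for IL10_EV and -0.14 (SE 0.09) for TGFB_EV. Without IL10_EV replicate 2, the library that stood apart from its group, the IL10_EV value was 0.26. The Gm6209-labelled row held 26.3 ± 1.85 CPM in LPS_EV, 24.2 ± 1.58 in IL10_EV, 23.6 ± 1.02 in control_EV and 19.1 ± 1.60 in TGFB_EV (SD, n = 3). Its log2 fold changes were 0.16 (SE 0.11) for LPS_EV, -0.30 (SE 0.12) for TGFB_EV and 0.03 (SE 0.11) for IL10_EV, and edgeR called none (adjusted p = 0.651, 0.789 and 0.9996).

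**Figure D2:**
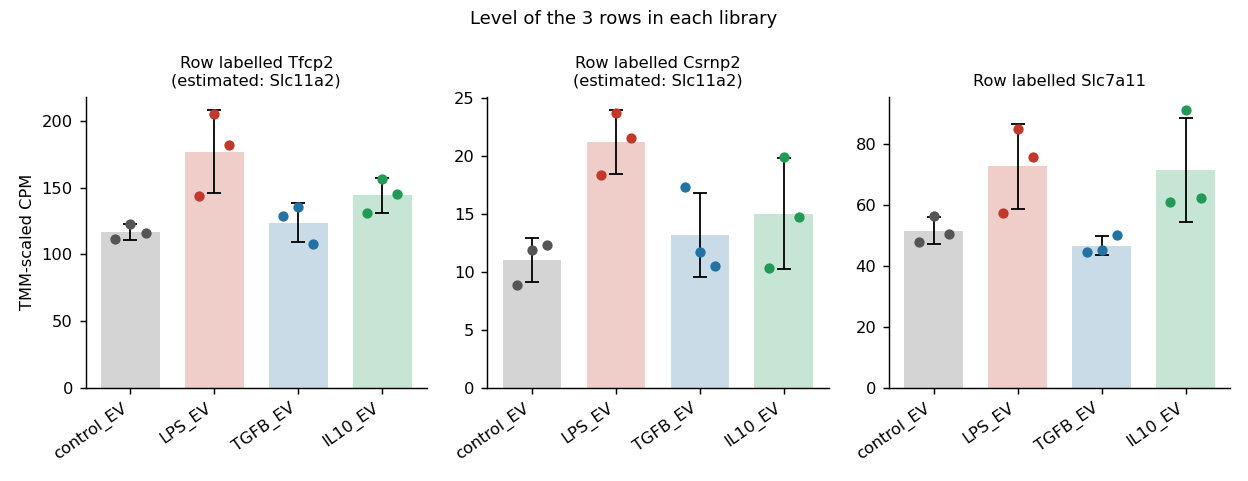
TMM-scaled CPM of the 3 rows by vesicle group; points are libraries in replicate order, bars group means and whiskers the SD (n = 3), with each vertical axis starting at 0. LPS_EV points lie above all control_EV points in all 3 panels, and TGFB_EV points overlap the control range in each.

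All 3 rows had every LPS_EV library above every control_EV library, as had 8.04% of the 10523 rows tested, and 2 of 3 had this in IL10_EV, against 4.49% of 10613. Those contrasts chose the rows, so nothing is read from these counts. In TGFB_EV, which the choice did not name but which shares the control libraries, 0 of 3 rows had this (5.35% of 10524 rows did). There edgeR's quasi-likelihood test called 0 of 3 rows, against 0.038% of all rows. Its adjusted p was 0.883 for the Tfcp2-labelled, 0.848 for the Csrnp2-labelled and 0.820 for the Slc7a11-labelled row, with unadjusted p = 0.343, 0.232 and 0.139. DESeq2 called none of them either, and the lowest adjusted p under any alternative was 0.203. The approximate 95% interval of the log2 fold change, from a normal quantile, was -0.08 to 0.25 for the Tfcp2-labelled row. It was -0.14 to 0.64 for the Csrnp2-labelled and -0.33 to 0.04 for the Slc7a11-labelled row. Changes inside these intervals could not be told from none with these libraries, and for the Csrnp2-labelled row they reach 0.64.

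Whether the 2 Slc11a2 rows agree was asked over libraries. Both ranked LPS_EV replicates 2 and 3 first and second and IL10_EV replicate 2 next, of 12. Over all 12 libraries their log2(CPM + 1) values had Pearson r = 0.87 and Spearman rho = 0.81, given as a description because the group differences chose the rows. Within groups, as deviations from the group mean, r was 0.67 and rho 0.71, and the deviations had the same sign in 10 of 12 libraries. An exact two-sided permutation within groups gave p = 0.0239 for r and 0.0316 for rho, and p = 0.0718 for r after Benjamini-Hochberg adjustment over the 3 pairs of rows. Without the 2 libraries farthest from the median, LPS_EV replicate 1 and TGFB_EV replicate 3, r was 0.64 and rho 0.58. The Tfcp2-labelled and Slc7a11-labelled rows, which stand for different genes, deviated together to nearly the same extent (r = 0.66, rho = 0.64, exact permutation p = 0.0802, adjusted 0.120). The Csrnp2-labelled and Slc7a11-labelled rows had r = 0.58 and rho = 0.59 (exact permutation p = 0.122, adjusted 0.122), falling to r = 0.27 without IL10_EV replicates 1 and 2. Of 7498 other rows of at least 5 CPM, 3.09% deviated with the Tfcp2-labelled row as closely as the Csrnp2-labelled row did, so such agreement was shared with many rows of other genes.

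**Figure D3:**
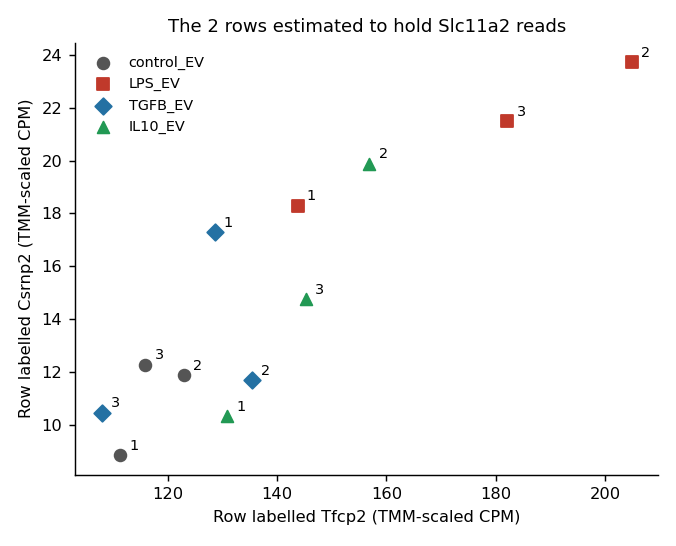
TMM-scaled CPM of the Csrnp2-labelled row against that of the Tfcp2-labelled row, 1 point for each of 12 libraries, numbered by replicate; neither axis starts at 0. LPS_EV replicates 2 and 3 lie at the upper right, and control_EV and TGFB_EV replicate 3 at the lower left.

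Summed as 1 Slc11a2 value, both rows gave 198 ± 33.7 CPM in LPS_EV, 159 ± 17.8 in IL10_EV, 137 ± 16.3 in TGFB_EV and 128 ± 7.37 in control_EV (SD, n = 3). The sum's log2 fold change was 0.64 (SE 0.08) for LPS_EV and 0.32 (SE 0.09) for IL10_EV. For TGFB_EV it was 0.10 (SE 0.09; edgeR adjusted p = 0.865). With 1 library left out, the TGFB_EV value was 0.20 without TGFB_EV replicate 3, 0.05 without TGFB_EV replicate 1 or 2, 0.06 without control_EV replicate 1, and 0.14 and 0.10 without control_EV replicates 2 and 3. EdgeR's adjusted p over these fits ran from 0.138 to 0.999. Per kb of Slc11a2 exon met, control_EV held 212 CPM in the Tfcp2-labelled row and 24.2 CPM in the Csrnp2-labelled row, which was 11.4% of the former. That percentage was 14.5 in LPS_EV, 12.8 in TGFB_EV and 12.6 in IL10_EV. The Tfcp2-labelled row also covers introns and part of Gm5475, so this is no measure of how much of the messenger RNA ends in the element.

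How the counts divide between the rows does not depend on library size. The share in the Csrnp2-labelled row was 7.39%, 8.82% and 9.59% in control_EV, the first with a 95% Wilson interval of 6.07% to 8.96%. It was 11.3%, 10.4% and 10.5% in LPS_EV, each above all controls, though the interval of LPS_EV replicate 2 (9.26% to 11.6%) overlapped that of control_EV replicate 3 (8.22% to 11.2%). In TGFB_EV the shares were 11.9%, 7.96% and 8.86%, of which the first lay above the control range and the others within it. In IL10_EV they were 7.32%, 11.2% and 9.22%, reaching past the control range at both ends. Mean shares, from low to high, were 8.60% ± 1.12 in control_EV, 9.26% ± 1.96 in IL10_EV, 9.56% ± 2.04 in TGFB_EV and 10.7% ± 0.490 in LPS_EV (SD, n = 3). TGFB_EV exceeded control_EV by 0.959 percentage points (exact two-sided permutation p = 0.6; no p below 0.1 can be had from 3 against 3). Without TGFB_EV replicate 1 the difference was -0.188. Chi-square per degree of freedom for the share within a group, near 1 for counting error alone, was 8.03 in TGFB_EV, 9.42 in IL10_EV, 2.16 in control_EV and 0.503 in LPS_EV.

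**Figure D4:**
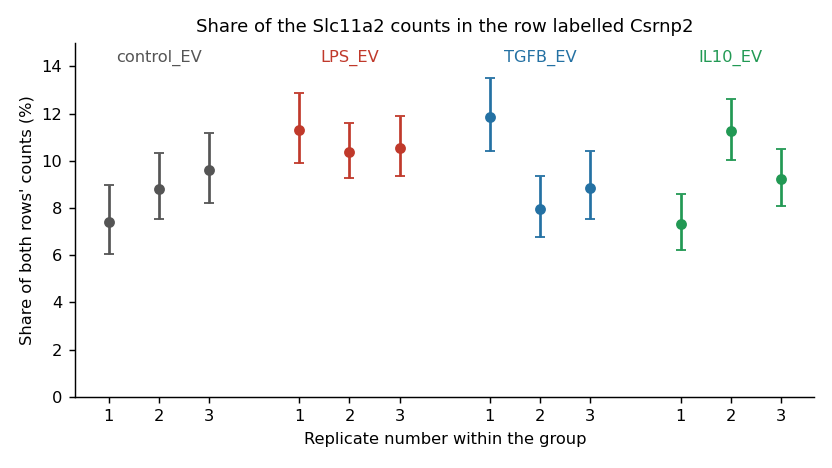
Share of the counts of both Slc11a2 rows that lies in the Csrnp2-labelled row, in percent from 0, by library and group; points are libraries and whiskers 95% Wilson intervals for counting error. The 3 LPS_EV libraries sit between 10.4% and 11.3%, while TGFB_EV and IL10_EV libraries spread from 7.32% to 11.9%.

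Of the rows that met other iron-handling genes, edgeR called none in any comparison, and with so few rows called over the whole table nothing is read from that. Of 36 listed genes, 19 were met by moved rows and 11 by rows with enough counts to test, on 16 rows. In LPS_EV, 0 of 16 rows were called (0.817% of all rows were), 2 had an unadjusted p under 0.05 (11.2% of all rows had) and the median log2 fold change was -0.04, beside 0.00 over all rows. The 3 rows that met Tfrc, the transferrin receptor whose messenger RNA carries the same kind of element, had means of 687, 669 and 286 CPM and LPS_EV log2 fold changes of -0.10, -0.04 and 0.01. Aco1, which encodes an iron regulatory protein, had 360 CPM and a log2 fold change of -0.16 in LPS_EV (edgeR adjusted p = 0.207). DESeq2 called this 1 row of the list (adjusted p = 0.0417) in LPS_EV, where it called 119 rows over the whole table. It gave no adjusted p there for list rows from Slc39a14, at 37.4 CPM, downwards, so it could not call those. Rows that met Pcbp1, an iron chaperone, and Ndfip1, an adaptor that helps degrade DMT1, had 370 and 106 CPM and LPS_EV log2 fold changes of -0.05 and -0.20. A second row that met Ndfip1, at 78.6 CPM, gave -0.11. In TGFB_EV 0 of 16 rows were called by edgeR (0.038% of all rows were) and 0 by DESeq2, 3 had an unadjusted p under 0.05 (6.23% of all rows had), and the median was -0.06. In IL10_EV both tools called 0 of 16 rows, 0 had an unadjusted p under 0.05 and the median was 0.01. Over all rows IL10_EV had 0 edgeR calls, which is 0% of 10613, with 334 rows (3.15%) at an unadjusted p under 0.05 and 1 DESeq2 call.

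For cystine and glutathione genes the counts were as low. Of 27 genes listed, 17 were met and 15 could be tested, on 15 rows. EdgeR called 0 of 15 in each comparison, where it called 0.817%, 0.038% and 0% of all rows in LPS_EV, TGFB_EV and IL10_EV. DESeq2 called none either. In LPS_EV, though, it gave no adjusted p for list rows from Cth, at 38.0 CPM, downwards, so it could not call those. At an unadjusted p under 0.05 there were 3, 1 and 1 rows, against 11.2%, 6.23% and 3.15% of all rows. The medians were 0.01, -0.02 and -0.01. Slc3a2, the heavy chain of the xCT transporter, was at 304 CPM, with log2 fold changes of -0.10 in LPS_EV, -0.04 in TGFB_EV and -0.11 in IL10_EV (edgeR adjusted p = 0.501, 0.929 and 0.9996). Prdx1, a peroxidase, was met by a row at 934 CPM with a log2 fold change of 0.15 in LPS_EV and 0.19 in IL10_EV. Txn1, or thioredoxin, at 597 CPM gave 0.02 and 0.06. G6pdx, of the pentose phosphate pathway that supplies NADPH, was met by a row at 439 CPM, shared with 4 other genes, that gave 0.01 and -0.05. The row that met Gpx1, a glutathione peroxidase, had 95.3 CPM and log2 fold changes of -0.30 and -0.21. Otub1, which stabilises the xCT protein, was met by a row at 1090 CPM, shared with Cox8a, with -0.06 in both LPS_EV and IL10_EV.

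Known regulators of the transporters were listed as well. Of 17, 10 were met, on 15 rows tested. EdgeR called none of these rows in any comparison, where it called 0.817%, 0.038% and 0% of all rows. DESeq2 called none either. In LPS_EV, though, it gave no adjusted p for list rows from an Arnt row at 28.5 CPM downwards, so it could not call those. In LPS_EV 2 rows had an unadjusted p under 0.05 (11.2% of all rows had), and in TGFB_EV and IL10_EV 0 had (6.23% and 3.15%). The median log2 fold change was 0.02 in LPS_EV and -0.01 in IL10_EV. The row that met Atf4, shared with Mief1, was at 1570 CPM. Its log2 fold changes were -0.11 in LPS_EV, -0.02 in TGFB_EV and -0.07 in IL10_EV. Ddit3, a stress regulator downstream of ATF4, was met by a row at 508 CPM, shared with 3 other genes, with -0.14 in LPS_EV. Bach1, a heme-responsive repressor of antioxidant genes, was at 116 CPM and gave 0.02. A row that met Nfkb1, a transcription factor of inflammatory signalling, was at 161 CPM, shared with Manba, and gave -0.09. A second row that met Nfkb1, at 41.0 CPM, gave -0.05. Epas1, the hypoxia factor known to act on Slc11a2 in gut, gave -0.10 at 90.7 CPM.

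Among 14 ferroptosis genes, which share members with the other lists, 11 were met and 8 could be tested, on 13 rows. Tfrc, Alox15 and Pla2g6 were each met by more than 1 of these rows, so the rows are not separate genes. EdgeR called 0 of 13 rows in each comparison, where it called 0.817%, 0.038% and 0% of all rows in LPS_EV, TGFB_EV and IL10_EV. DESeq2 called none either. In LPS_EV, though, it gave no adjusted p for list rows from Dhodh, at 26.1 CPM, downwards, so it could not call those. In LPS_EV the median log2 fold change was -0.11 and 5 of 13 rows had an unadjusted p under 0.05, against 11.2% of all rows. In TGFB_EV the median was 0.06 with 2 such rows (6.23% of all rows), and in IL10_EV 0.01 with 0 (3.15%). Lpcat3, which loads polyunsaturated chains into phospholipids, was met by a row at 454 CPM, shared with Emg1 and Phb2, with -0.11 in LPS_EV. Pla2g6, a phospholipase, was met by a row at 43.1 CPM that gave 0.20 and by another at 16.3 CPM that gave -0.18. Dhodh, a mitochondrial enzyme that limits lipid peroxidation, was at 26.1 CPM and gave 0.13.

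**Figure D5:**
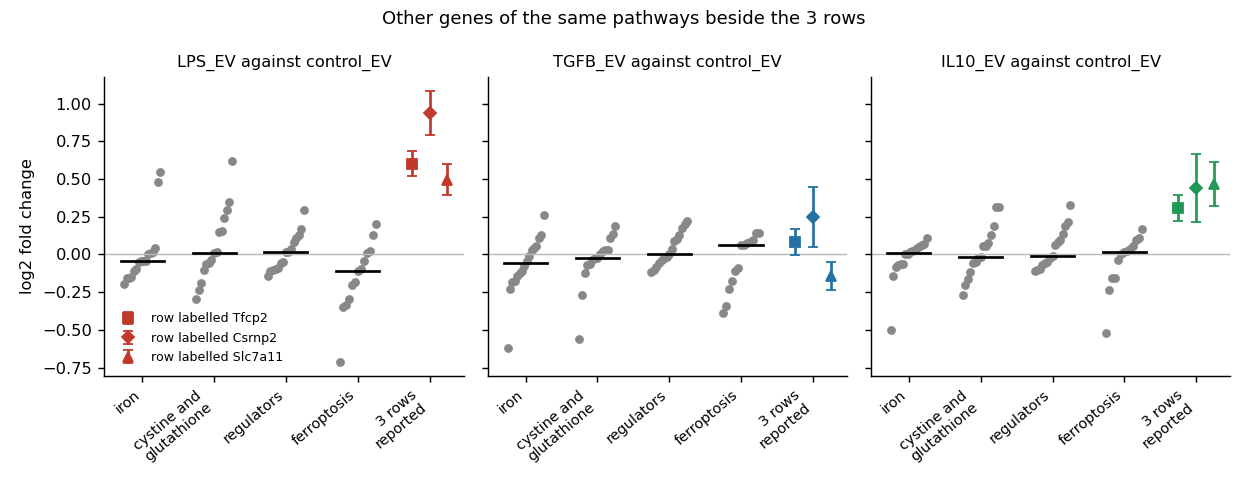
Log2 fold change against control_EV in the 3 comparisons; grey points are tested rows that met genes of each list, black lines list medians, and coloured symbols the 3 transporter rows with their SE. List medians lie between -0.11 and 0.06, and the 3 transporter rows, which were chosen for their LPS_EV and IL10_EV values, lie at 0.31 to 0.94 in those panels.

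Rows with the most similar profile over the 12 libraries were ranked by Pearson r of log2(CPM + 1) among 7499 rows of at least 5 CPM, as a description. For the Tfcp2-labelled row these were rows that met Fnip2 (r = 0.95), H2-K1 (0.94), F830045P16Rik (0.91) and Dst (0.89), with ENSMUSG00000120973, whose match was not supported (0.92). The Csrnp2-labelled row came 10th. For the Csrnp2-labelled row they were rows that met H2-K1 (0.89), an MHC class I heavy chain, B2m (0.87), its light chain, Slc11a2 itself through the Tfcp2-labelled row (0.87), Specc1 (0.87) and Dst (0.87). For the Slc7a11-labelled row they included the row that met Saa3, an acute-phase protein (0.96), and a row that met Oasl2 and 4930519G04Rik (0.95). The others, labelled Gm32141 (0.95), Gm266 (0.95) and Clec4e (0.95), met no protein-coding gene by 100 bp. The Tfcp2-labelled row came 109th and the Csrnp2-labelled row 306th in that order.

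Of the rows that neighbour the Slc11a2 rows, the row labelled Pou6f1 was at 199 CPM and met Letmd1 and Csrnp2, and rows labelled 1110013H19Rik and C330013E15Rik, at 5.72 and 8.43 CPM, met Tfcp2. On the other side, the rows labelled Letmd1, Gm5475 and Higd1c held 0.0708, 0.190 and 0.393 CPM. Reads of Csrnp2 and Tfcp2 themselves were thus estimated to sit in other rows than those labelled with these names.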

How the data were processed

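Raw counts for each Ensembl gene ID, not normalised, were deposited by the authors; 3 tables were used, and the remaining table repeated 1 of them. DESeq2 was used per the submitters' processing notes. Aligner, counting program and build were not given in the sources used here. Libraries were made with SMART-Seq v4 and Nextera XT, per the labels' protocols. Groups and replicate numbers came from the titles. The test was edgeR 4.0.16 (R 4.3.3) with filterByExpr at a minimum count of 10, TMM factors and a quasi-likelihood F statistic, with Benjamini-Hochberg adjustment and a threshold of 0.05, on the 6 libraries of each comparison, without covariates. The SE is the log2 fold change divided by the root of F.

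Displacements were fitted in 100 bp steps up to 1000 kb either way, with a penalty of 15 for each change, scoring rows by overlap with protein-coding exons (100 bp) and exons of widely expressed genes (300 bp). Support needed 5; 84 of 91 stretches had it. Rows that met a gene by 100 bp carry its name here, and these names are estimates. Of 7155 rows of at least 5 CPM in supported stretches, 88.3% met a protein-coding exon and 29.1% met the gene of their label. Some rows that met listed genes, such as Tkt, Sat1 and Acsl4, held 0 CPM, while the list rows named above are those of highest level. Scripts were tested on simulated data.

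The members, lists and named rows were chosen with earlier results of these data known. Named rows were the members, called rows of each list or else up to 6 of its rows with the highest mean CPM, the 5 most similar rows, and neighbours within 5 rows. A row that this rule also takes is not reported here.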

Additional observations from a re-analysis of the deposited data

How the results depend on the processing

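Over 12 alternatives each, the log2 fold change stayed positive for all 3 rows in LPS_EV (0.48 to 0.73 Tfcp2-labelled, 0.81 to 1.03 Csrnp2-labelled, 0.37 to 0.64 Slc7a11-labelled) and in IL10_EV (0.24 to 0.37, 0.18 to 0.65 and 0.26 to 0.57). In TGFB_EV it ran from 0.02 to 0.17, 0.00 to 0.39 and -0.20 to -0.08. Plain-total CPM kept the direction of every mean. The Csrnp2-labelled row alone gave 0.94 for LPS_EV where the sum gave 0.64; leaving out 1 library each, the sum ran from 0.52 to 0.76, and in TGFB_EV from 0.05 to 0.20 and in IL10_EV from 0.24 to 0.40. For the share in the Csrnp2-labelled row, TGFB_EV minus control_EV ran from -0.188 to 1.76 points with 1 library left out. The within-group r of the 2 Slc11a2 rows ran from 0.60 to 0.78 when each library was left out, an alternative chosen after seeing the data.

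Rows called over the whole table depended on the settings. In LPS_EV, 86 became 119 with DESeq2, 165 without a filter and 0 with all 12 libraries in 1 fit. With 1 library left out it became 18 to 127. In TGFB_EV, 4 became 17 with DESeq2, 111 without a filter and 0 with all 12 libraries, and 0 to 419 with 1 library left out, the highest without TGFB_EV replicate 3. In IL10_EV, 0 became 1 with DESeq2 and 22 without a filter, and 0 to 2 with 1 library left out. The cause was not tested. List calls stayed at 0 with a 300 bp overlap or rows taken by label. Depth limits the Csrnp2-labelled row most, at 93 to 273 counts a library.

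Replicate numbers are shared between groups, but the labels do not say that they pair libraries, and same-numbered libraries correlated with r from -0.256 to 0.266. With a replicate block, edgeR called 209 rows in LPS_EV, 3 in TGFB_EV and 3 in IL10_EV, and the 3 transporter rows gave 0.59, 0.95 and 0.49 in LPS_EV.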
